A study of Rattus norvegicus with 8 samples.

Results

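The RT1 complex is the major histocompatibility complex (MHC) of the rat. The 34 genes described here were all those of the 19238 in the deposited gene table whose name starts with RT1-, and all of them lie on chromosome 20. By name, 24 are class I genes and 10 are class II genes (the B, D, H, DM and DO genes). RNA of the thoracic aorta had been sequenced from 4 Goto-Kakizaki (GK) rats, an inbred strain bred from Wistar stock for high blood glucose that develops diabetes without obesity, and from 4 Wistar rats as controls. All were 7 to 8 weeks old, neither group is labelled as given a drug or carrying a transgene, and the libraries of each group carry the numbers 7 to 10. Strain and diabetes divide the samples in the same way and cannot be told apart, and the RT1 haplotypes of the animals are not in the labels. The titles are all that marks the libraries as separate rats, so each p-value below measures the spread between these 8 samples.

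Class I molecules hold peptides from inside the cell, sit on nearly all nucleated cells and are read by CD8 T cells. Class II molecules hold peptides taken up from outside, are made mainly by macrophages, dendritic cells and B cells, and are read by CD4 T cells. In the rat, RT1-A genes encode the classical class I heavy chains, the CE and other class I regions hold a number of further genes that varies between haplotypes, RT1-B and RT1-D are the counterparts of human HLA-DQ and HLA-DR, and the DM and DO products govern peptide loading of class II. The genes are close relatives of each other and differ in sequence between strains, so reads of 1 gene can be counted on another, and reads of a strain far from the reference can be lost. The rule for shared reads was not given in the sources used here. Every value of a single RT1 gene below is uncertain in this respect.

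The promoters of the RT1 genes the results turn on, RT1-M6-1 apart, are shown first, since they carry elements by which class I and class II genes are known to be controlled. RT1-M6-1, also called below, is not shown, and none of the elements marked here was found for it. They are RefSeq sequences of the GRCr8 assembly, which comes from the BN strain and not from GK or Wistar rats, and each gives the 250 bases before the annotated start, 5′ to 3′. In the 3 class I promoters, capitals mark the kappa-B element of enhancer A (GGGGATTCCC), the interferon response element (AGTTTCACTTC), both as they stand in RT1-A2, and the Y box (CTGATTGG), which RT1-A2 holds on the opposite strand. RT1-A1 is chr20:4906959-4907208 on the plus strand, RT1-A2 chr20:4872621-4872870 on the plus strand and RT1-CE10 chr20:3384980-3385229 on the minus strand.
RT1-A1: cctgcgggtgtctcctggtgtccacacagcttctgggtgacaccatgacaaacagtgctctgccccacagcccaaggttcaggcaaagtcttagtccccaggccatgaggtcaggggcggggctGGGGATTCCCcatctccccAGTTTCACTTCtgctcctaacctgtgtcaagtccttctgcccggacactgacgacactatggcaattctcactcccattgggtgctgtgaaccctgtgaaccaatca
RT1-A2: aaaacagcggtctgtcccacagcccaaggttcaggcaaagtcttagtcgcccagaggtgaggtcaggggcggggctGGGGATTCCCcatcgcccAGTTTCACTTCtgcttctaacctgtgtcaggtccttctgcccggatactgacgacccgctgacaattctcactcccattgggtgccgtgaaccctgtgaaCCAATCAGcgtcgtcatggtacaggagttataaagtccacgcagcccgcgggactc
RT1-CE10: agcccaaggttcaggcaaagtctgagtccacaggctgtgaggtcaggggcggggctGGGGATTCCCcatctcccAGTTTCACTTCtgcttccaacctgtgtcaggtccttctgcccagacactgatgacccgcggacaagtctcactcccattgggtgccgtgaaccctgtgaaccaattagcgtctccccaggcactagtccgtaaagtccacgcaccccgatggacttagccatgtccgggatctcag

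The kappa-B element precedes the interferon element in each of these promoters. By alignment, the annotated start of RT1-A1 lies about 48 bases upstream of that of RT1-A2. The offset is not the same all along. The kappa-B element begins 126 bases before the start in RT1-A1 and 174 in RT1-A2, and the interferon element 107 and 156. The RT1-A1 window ends after CCAATCA, inside the Y box that RT1-A2 shows whole. The alignments used the whole 300-base windows of the table, which add to the 250 bases shown the 50 after the start, not printed. Over 251 aligned columns RT1-A1 and RT1-A2 were 92.4% identical, and RT1-CE10 was 85.7% identical to RT1-A1 over 231 columns and 82.9% identical to RT1-A2 over 281. Of the 34 members, 31 had a promoter in the table. The kappa-B letters occurred in 6 of the 22 class I promoters and the interferon letters in 6, against 0 of the 9 class II promoters for each. Of all 33469 promoters of this length, 0.102% hold the first and 0.0568% the second. Both strings of letters were taken from RT1-A2, so its own hit was fixed in advance and its near relatives can share them by descent. In the 3 class II promoters that follow, capitals mark the Y box. RT1-Ba is chr20:4576807-4577056 on the plus strand, RT1-Bb chr20:4604119-4604368 on the minus strand and RT1-Db1 chr20:4560163-4560412 on the minus strand.
RT1-Ba: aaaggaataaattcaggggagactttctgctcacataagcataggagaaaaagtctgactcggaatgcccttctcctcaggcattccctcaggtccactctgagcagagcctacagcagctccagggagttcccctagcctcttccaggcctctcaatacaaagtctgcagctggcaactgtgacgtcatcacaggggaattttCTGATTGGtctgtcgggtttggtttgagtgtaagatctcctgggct
RT1-Bb: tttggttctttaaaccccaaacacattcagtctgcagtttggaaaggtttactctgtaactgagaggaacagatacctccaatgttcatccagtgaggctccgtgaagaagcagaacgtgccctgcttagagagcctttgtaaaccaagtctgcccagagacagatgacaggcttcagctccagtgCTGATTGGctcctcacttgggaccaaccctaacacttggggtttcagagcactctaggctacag
RT1-Db1: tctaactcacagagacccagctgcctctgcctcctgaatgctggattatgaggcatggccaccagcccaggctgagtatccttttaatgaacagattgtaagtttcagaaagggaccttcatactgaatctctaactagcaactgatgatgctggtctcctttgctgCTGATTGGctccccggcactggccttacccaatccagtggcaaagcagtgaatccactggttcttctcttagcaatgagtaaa

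The Y box letters stood in 7 of the 9 class II promoters (RT1-Da, RT1-Db2, RT1-Db1, RT1-Ba, RT1-Bb, RT1-DOa and RT1-Ha) and in 6 of the 22 class I promoters, against 3.19% of all promoters. RT1-A1 is not among these class I promoters, as its window ends within the matching stretch. All motifs were searched on both strands, and the 3 motifs do not overlap each other in the promoters shown.

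Total gene counts per library were between 11760397 and 16266151. Smooth muscle markers, which define the aortic wall, were present in every library, with a summed level of 2222 to 6145 CPM (counts scaled to a common library size) in GK aortas and 4415 to 11893 CPM in controls. Adipocyte markers summed to 7416 to 17294 CPM in GK aortas and 5117 to 9050 CPM in controls. In bulk tissue, fewer cells of a type and less RNA per cell cannot be told apart.

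The aortas of GK rats differed from those of controls in 7 RT1 genes. RT1-A1 and RT1-M6-1 were higher, and RT1-A2, RT1-CE10, RT1-Ba, RT1-Bb and RT1-Db1 were lower. Of the 34 genes, 28 had enough counts to be tested, and the 7 calls rest on the quasi-likelihood test of edgeR, Benjamini-Hochberg adjusted over all genes, at an adjusted p under 0.05. In the same fit 7.28% of all 13673 genes tested were called, 3.96% higher and 3.31% lower. Among the 28 tested, the same 7 genes had no overlap between the groups, 2 above and 5 below. Of all genes tested, 15.6% did not overlap (7.93% with GK above, 7.64% with GK below). Between the first and the last RT1 gene on chromosome 20, 103 genes not described as relatives of the RT1 genes were tested. Of these 7 (6.80%) were called, 4 higher and 3 lower. Left out of this count were genes described as RT1-like under LOC names, of which LOC100364500 was called lower (below). The median log2 fold change, GK over control, was -0.014 over the 28 RT1 genes, 0.26 over the 20 class I genes tested and -0.65 over the 8 class II genes tested, against 0.00081 over all genes. Of the class I genes 12 were above 0 and 8 below, and of the class II genes 1 was above and 7 below.

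**Figure D1:**
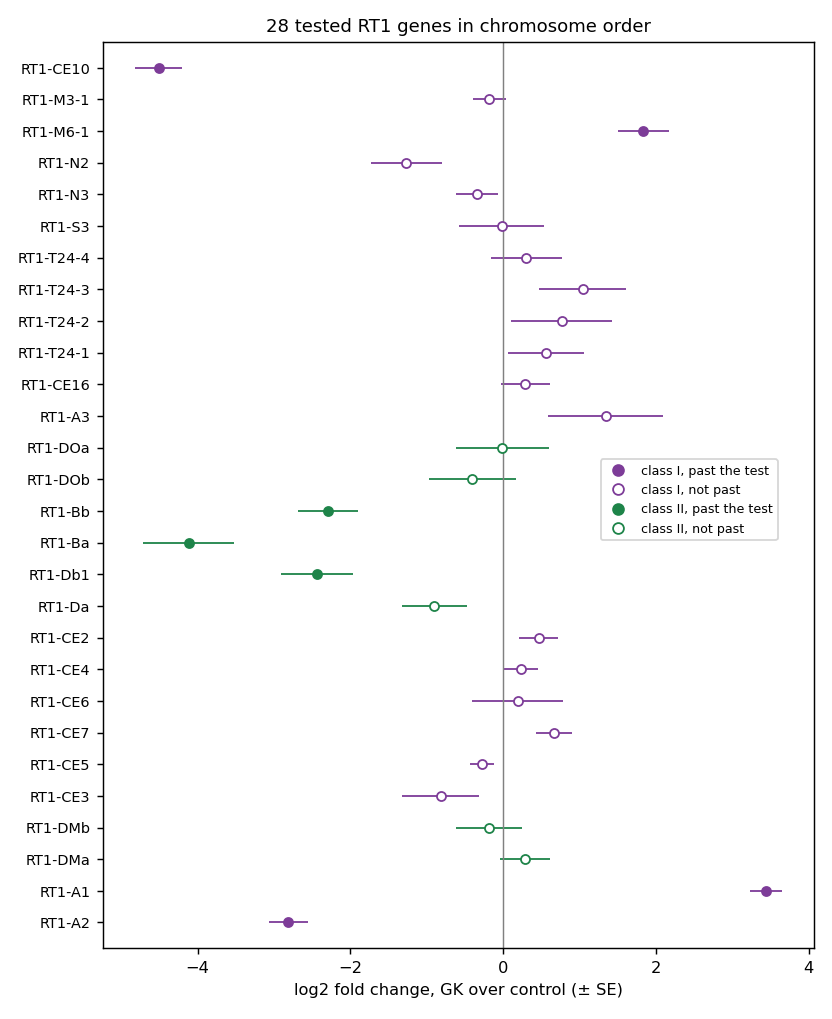
Log2 fold change, GK over control, with its standard error for the 28 tested RT1 genes in chromosome order. Filled points passed the test and open points did not, and the 3 filled class II genes lie next to each other between -2.29 and -4.12, while RT1-A1 at 3.44 and RT1-A2 at -2.81 close the order.

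Among class I genes, RT1-A1, a classical class I heavy chain, had 181, 221, 227 and 266 CPM in GK aortas 7 to 10, against 20.04, 27.5, 16.8 and 18.4 CPM in controls 7 to 10. Every GK library was several times above every control. The log2 fold change was 3.44 ± 0.21 (SE, n = 4 per group), a 10.8-fold higher level (edgeR adjusted p = 8.95e-04). The file places RT1-A1 at 5351605 to 5421098 on chromosome 20 (the rat build was not given in the sources used here).

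RT1-A2, the second classical gene, had 7.52, 7.76, 9.23 and 7.63 CPM in GK aortas 7 to 10, against 54.5, 33.5, 80.2 and 57.3 CPM in controls 7 to 10. The GK libraries lay close together and below every control, with a log2 fold change of -2.81 ± 0.26 (7.01-fold lower, edgeR adjusted p = 0.00242). Its span, 5374985 to 5378539, lies wholly inside the annotated span of RT1-A1. A read from that stretch might therefore be counted for either gene, but only the spans were compared and not the exons.

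The pair was for this reason also described by its sum and its division. RT1-A1 took 96.0%, 96.6%, 96.1% and 97.2% of the counts of both genes in GK aortas 7 to 10, against 26.9%, 45.1%, 17.3% and 24.3% in controls 7 to 10. The widest Wilson 95% interval, 41.3% to 48.9% in control 8, stays far below the GK values, and such intervals cover counting error only. RT1-A1 and RT1-A2 together had 188, 229, 237 and 274 CPM in GK aortas and 74.6, 60.9, 96.9 and 75.7 CPM in controls. On counts the sum was 3.01-fold higher in GK aortas and did not overlap. The length used for RT1-A1 is 2.79 times that used for RT1-A2, so RT1-A1 weighs more in this sum than per length. On FPKM (fragments normalised by gene length and library size), the larger gene in GK aortas was RT1-A1, at 26.9 to 47.3. In controls the larger gene was RT1-A2, at 15.2 to 48.9 FPKM, and these ranges overlapped.

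RT1-CE10, a class I gene at 154074 to 157861, had the largest fall of all 28 tested members. Its level was 0.438, 0.755, 0.774 and 1.21 CPM in GK aortas 7 to 10, against 21.4, 20.1, 14.1 and 17.5 CPM in controls 7 to 10. GK libraries held 6 to 16 counts of it each and were all far below the controls, a log2 fold change of -4.51 ± 0.31 (22.8-fold lower, edgeR adjusted p = 8.95e-04). A near relative that the table names LOC100364500 and describes as RT1 class I CE11-like had 1.09, 1.10, 1.16 and 1.59 CPM in GK aortas against 16.4, 19.2, 8.91 and 10.4 CPM in controls. It too was lower in every GK library (log2 fold change -3.47 ± 0.31, edgeR adjusted p = 0.0023), and reads may be shared between it and RT1-CE10.

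RT1-M6-1, a class I gene of the M region at 2057689 to 2079467, had 11.4, 15.03, 14.5 and 20.7 CPM in GK aortas 7 to 10, against 4.26, 6.56, 2.14 and 4.37 CPM in controls 7 to 10. The groups did not overlap, and the log2 fold change was 1.83 ± 0.33 (3.56-fold higher, edgeR adjusted p = 0.0209). The call was lost without GK 8 (adjusted p = 0.0685), GK 10 (0.0569), control 7 (0.0515) or control 10 (0.0778) in the same edgeR test. The calls of RT1-A1, RT1-A2, RT1-CE10 and RT1-Ba held when any 1 library was left out, with adjusted p-values of at most 0.00877, 0.0172, 0.0100 and 0.0459 in that order.

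**Figure D2:**
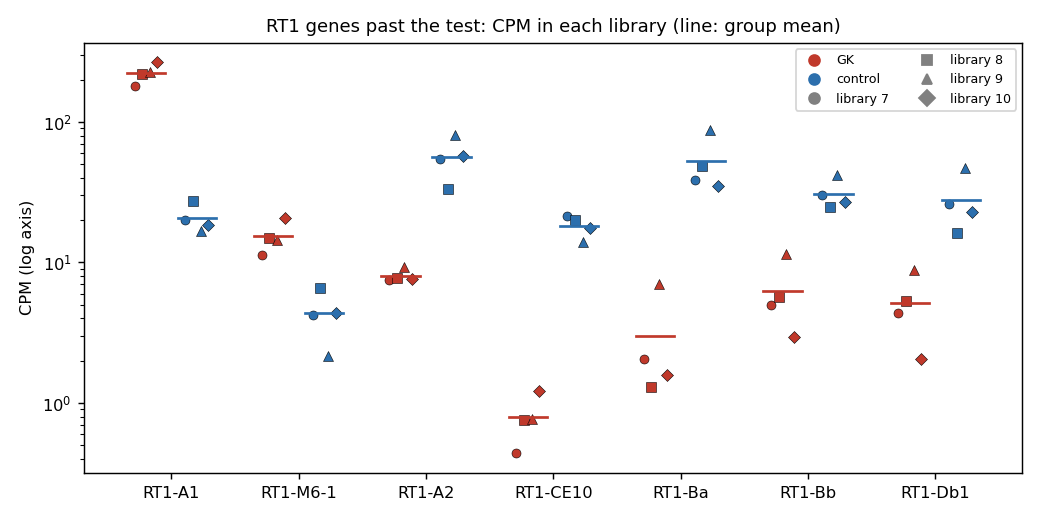
CPM of the 7 RT1 genes past the test in each library, on a log axis, with GK left of control for each gene, a line at the group mean and a marker shape per library number. RT1-A1 and RT1-M6-1 stand higher in all 4 GK libraries and the other 5 genes stand lower in all 4.

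The remaining 16 class I genes tested did not pass, with log2 fold changes from -1.27 (RT1-N2) to 1.34 (RT1-A3) and edgeR adjusted p-values from 0.115 to 0.985. RT1-CE7 had 36.5, 40.9, 44.3 and 57.3 CPM in GK aortas and 38.6, 31.7, 22.7 and 19.8 CPM in controls, and it was nearest to the threshold (log2 fold change 0.67 ± 0.24). Its groups overlapped through control 7 alone. RT1-CE16 had 27.2, 37.0, 38.3 and 57.5 CPM in GK aortas and 25.1, 52.1, 32.8 and 21.0 CPM in controls. RT1-CE4 had 25.0, 29.2, 33.4 and 44.0 CPM in GK aortas and 36.6, 21.8, 25.1 and 28.6 CPM in controls. For both, GK 10 was the highest GK library and the groups overlapped, with log2 fold changes of 0.29 ± 0.32 and 0.23 ± 0.22. RT1-CE5 had 11.2, 11.5, 13.5 and 16.7 CPM in GK aortas and 14.8, 17.7, 15.7 and 15.8 CPM in controls (-0.28 ± 0.16 on the log2 scale). RT1-N3 had 7.01, 9.27, 10.9 and 14.4 CPM in GK aortas and 10.3, 10.3, 19.0 and 13.2 CPM in controls (-0.34 ± 0.28). The groups overlapped for both of these. RT1-M3-1, whose product is known to present formylated peptides, had a log2 fold change of -0.18 ± 0.21 at 6.86 to 10.6 CPM in GK aortas and 6.97 to 11.4 CPM in controls. RT1-CE2, RT1-CE3 and RT1-CE6 averaged under 6 CPM in both groups. The spans of RT1-CE2, RT1-CE4 and RT1-CE7 run for 305, 262 and 202 kilobases and contain other CE genes, and in all 12 members, all class I, overlap another member in the annotation.

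The T24 genes and RT1-S3, neighbouring class I genes, were marked by a single library. RT1-T24-4 had 30.4, 23.7, 26.5 and 91.7 CPM in GK aortas 7 to 10, against 54.2, 26.3, 30.4 and 28.5 CPM in controls 7 to 10. RT1-T24-3 had 11.9, 9.68, 14.0 and 60.9 CPM in GK aortas and 14.0, 10.7, 9.85 and 12.1 CPM in controls. RT1-S3 had 15.1, 13.1, 28.3 and 80.3 CPM in GK aortas and 40.1, 23.2, 45.6 and 29.4 CPM in controls. GK 10 was the highest of all 8 libraries for each, while the other GK libraries overlapped the controls or lay below them. The 4 T24 genes together had 47.3, 37.8, 46.5 and 176 CPM in GK aortas and 74.7, 43.3, 46.9 and 46.6 CPM in controls. With GK 10 the log2 fold changes of RT1-T24-1, RT1-T24-2, RT1-T24-3 and RT1-T24-4 were 0.56, 0.77, 1.04 and 0.30, and without it they were -0.28, -0.37, 0.020 and -0.38. RT1-S3 stood at -0.018 with GK 10 and at -0.88 without it. None of these passed the edgeR test in either fit. B2m, the light chain shared by class I molecules, was also highest in GK 10 (1122 CPM, against 538 to 720 CPM in the other GK libraries), and the part of this library's state in these values was not tested.

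Summed over all 24 genes, class I had 387, 442, 492 and 770 CPM in GK aortas 7 to 10, against 360, 312, 354 and 297 CPM in controls 7 to 10. The groups did not overlap, and the ratio of the means was 1.58-fold, a log2 ratio of 0.66 (0.41 without GK 10). Without RT1-A1, class I summed to 207, 221, 265 and 504 CPM in GK aortas and 340, 284, 337 and 278 CPM in controls. With RT1-A2 and RT1-CE10, which were lower, also left out, the sums were 199, 213, 255 and 495 CPM in GK aortas. In controls these sums were 264, 231, 243 and 204 CPM. The groups overlapped for both kinds of sum. RT1-A1 made up 46.6%, 50.0%, 46.2% and 34.5% of class I counts in GK aortas and 5.56%, 8.81%, 4.73% and 6.21% in controls. RT1-CE10 made up 0.113% to 0.171% of class I counts in GK aortas and 3.98% to 6.43% in controls. On the FPKM scale (fragments normalised by gene length and library size), the class I sum was 110, 141, 196 and 249 in GK aortas and 169, 142, 212 and 151 in controls, a log2 ratio of 0.046 with the groups overlapping. The ratio of counts to FPKM puts the length used for RT1-A1 at 2.79 times that used for RT1-A2, so RT1-A1 weighs less in the FPKM sum. The deposited FPKM also scale by plain library size, without the TMM factors (corrections of library size) that enter CPM. The part of each difference in the lower ratio was not tested.

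**Figure D3:**
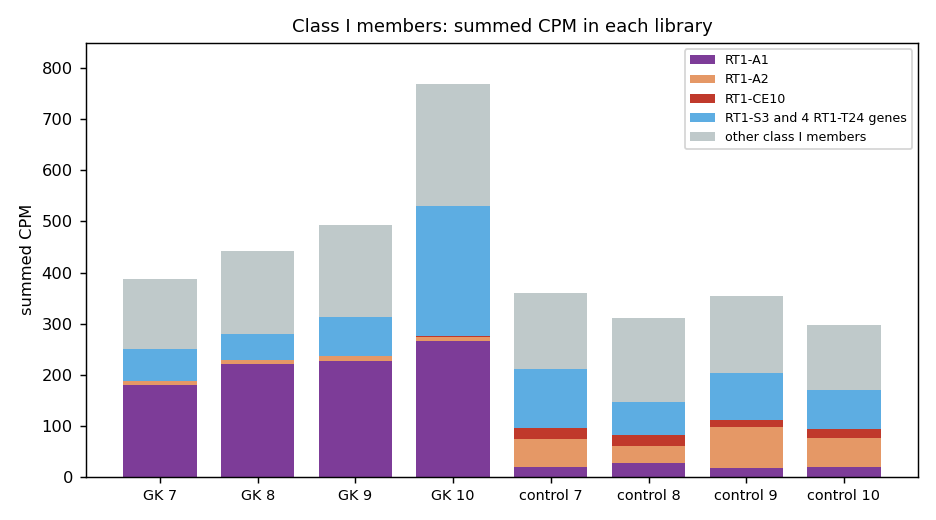
Summed CPM of the 24 class I genes in each library, split by gene, with GK libraries left of controls. RT1-A1 is the largest block in every GK library, RT1-A2 and RT1-CE10 are visible blocks in controls, and the block of RT1-S3 with the T24 genes is large in GK 10.

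Per length, the order of the class I genes also differed between the groups. In GK aortas RT1-A1 ranked first at 37.7 ± 8.36 FPKM (SD, n = 4), followed by RT1-CE16 at 32.6 ± 9.58 and RT1-T24-4 at 23.7 ± 15.2 FPKM, whose spreads overlap. In controls RT1-A2 ranked first at 30.5 ± 14.0 FPKM, followed by RT1-CE16 at 29.5 ± 10.4 FPKM, and these 2 did not differ beyond their spread. RT1-A1 stood at 3.82 ± 0.433 FPKM in controls, and RT1-A2 at 3.82 ± 1.05 FPKM in GK aortas.

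Of the class II genes, both B chains and RT1-Db1 were lower in GK aortas, and no class II gene was called higher. RT1-Ba, the alpha chain of the B molecule (4066132 to 4070721), had 2.04, 1.30, 7.03 and 1.59 CPM in GK aortas 7 to 10, against 38.8, 48.6, 87.4 and 34.9 CPM in controls 7 to 10. All GK libraries were below all controls, and the libraries numbered 9 were the highest of their group. The log2 fold change was -4.12 ± 0.60 (17.4-fold lower, edgeR adjusted p = 0.0114).

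RT1-Bb, the beta chain of the same molecule (4039413 to 4049711), had 4.96, 5.70, 11.5 and 2.94 CPM in GK aortas 7 to 10, against 30.0, 25.0, 41.6 and 27.0 CPM in controls 7 to 10. RT1-Db1, a beta chain of the D molecule (4087618 to 4097190), had 4.38, 5.29, 8.84 and 2.04 CPM in GK aortas 7 to 10, against 25.9, 16.1, 47.3 and 22.7 CPM in controls 7 to 10. Neither gene's groups overlapped, GK 10 was the lowest GK library for both, and control 9 the highest control. The log2 fold change was -2.29 ± 0.39 for RT1-Bb (edgeR adjusted p = 0.0171) and -2.44 ± 0.47 for RT1-Db1 (edgeR adjusted p = 0.0247). Both calls were lost without GK 7, GK 8 or control 10, with edgeR adjusted p-values of 0.0632, 0.0685 and 0.0539 for RT1-Bb and 0.0846, 0.0876 and 0.0654 for RT1-Db1.

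RT1-Da, the alpha chain that pairs with the D beta chain, had 29.2, 31.0, 55.6 and 19.9 CPM in GK aortas 7 to 10, against 64.4, 33.4, 112 and 43.3 CPM in controls 7 to 10. The groups overlapped, since GK 9 was above controls 8 and 10. The log2 fold change of -0.90 ± 0.43 did not pass (edgeR adjusted p = 0.209). On the FPKM scale RT1-Da was the highest class II gene in GK aortas (11.8 ± 7.50, SD, n = 4), where RT1-Ba had 1.52 ± 1.66. In controls RT1-Ba had 27.9 ± 16.4 and RT1-Da 24.5 ± 16.6 FPKM, which did not differ beyond their spread.

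The class II genes of peptide loading did not pass the test. RT1-DMb, a chain of the DM molecule that exchanges peptides, had 11.7, 17.6, 5.16 and 19.4 CPM in GK aortas and 17.3, 23.8, 9.52 and 10.9 CPM in controls (log2 fold change -0.19 ± 0.43). RT1-DMa, its partner chain, had 2.97 to 4.32 CPM in GK aortas and 1.54 to 4.29 CPM in controls. RT1-DOa and RT1-DOb, which encode the modulator of DM, had log2 fold changes of -0.010 ± 0.61 and -0.41 ± 0.57 at 0.365 to 4.58 CPM in GK aortas and 0.819 to 2.75 CPM in controls. For DMb, libraries 9 were the lowest of their group, where RT1-Ba, RT1-Bb, RT1-Db1 and RT1-Da were highest. The table also lists LOC100909593 and LOC100909630, described as like the alpha and beta chains of DM, with log2 fold changes of -0.53 ± 0.23 (edgeR adjusted p = 0.167) and 0.26 ± 0.32 (0.619).

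The 10 class II genes summed to 57.7, 67.1, 98.3 and 50.3 CPM in GK aortas 7 to 10, against 181, 153, 308 and 144 CPM in controls 7 to 10. The groups did not overlap, and the sum was 2.88-fold lower in GK aortas. Without RT1-Da the sums were 28.5, 36.2, 42.7 and 30.4 CPM in GK aortas and 117, 120, 196 and 101 CPM in controls, 3.87-fold lower.

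The 6 untested members had few counts. RT1-M1-2 had 0 counts over the 4 GK libraries and 16 over the 4 controls, at least 5.63-fold lower in GK aortas (floor of 3 counts over the group), and the authors' deposited table calls it lower with a q-value of 0.0167. Over the GK libraries RT1-M2 had 0 counts, RT1-S2 1, RT1-O1 1, RT1-Ha 5 and RT1-Db2 3, and over the controls RT1-M2 had 3, RT1-S2 1, RT1-O1 3, RT1-Ha 25 and RT1-Db2 4. The authors' deposited table calls 2 RT1 genes higher and 6 lower, and 7 of these are the 7 called here.

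**Figure D4:**
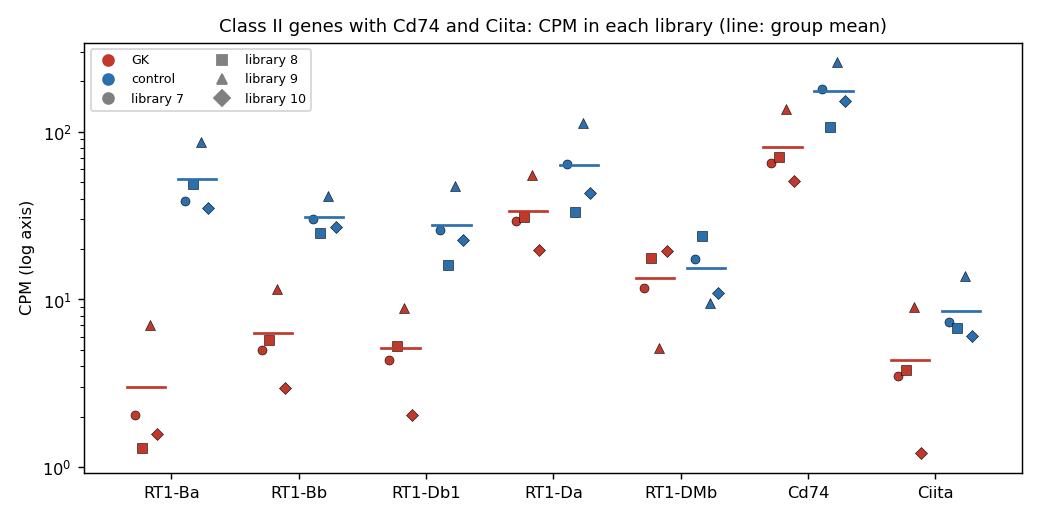
CPM of 5 class II genes, Cd74 and Ciita in each library, on a log axis, with GK left of control, a line at the group mean and a marker shape per library number. For RT1-Ba, RT1-Bb and RT1-Db1 the 4 GK libraries lie below the 4 controls, for RT1-Da the groups overlap, and library 9 tops its group in each gene but RT1-DMb.

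The genes that act with class II molecules gave the following values. Cd74, the invariant chain that escorts new class II molecules, had 64.7, 71.2, 137 and 50.7 CPM in GK aortas and 180, 107, 260 and 153 CPM in controls. GK 9 was above control 8, and the log2 fold change of -1.11 ± 0.36 did not pass (edgeR adjusted p = 0.0944, but 0.0129 without GK 9, 0.0118 without both libraries numbered 9 and 0.0282 with DESeq2). Ciita, the transactivator that turns on class II genes, had 3.50, 3.78, 9.03 and 1.21 CPM in GK aortas and 7.34, 6.75, 13.9 and 6.07 CPM in controls (-0.95 ± 0.54, edgeR adjusted p = 0.289). Rfx5, a subunit of the factor that binds the X box of class II promoters, had 15.5, 17.8, 21.5 and 19.0 CPM in GK aortas, each below the 25.5, 24.5, 29.8 and 33.0 CPM of controls. Its log2 fold change was -0.61 ± 0.15 (edgeR adjusted p = 0.0480). It held that call without GK 9 (0.0166) and lost it without any of the other 7 libraries (0.0553 to 0.140), with RLE normalization (0.0503) and with no filter on low counts (0.0641).

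On the class I side, Nlrc5, the transactivator of class I genes, had 20.6, 20.7, 28.1 and 33.1 CPM in GK aortas, each above the 15.1, 11.8, 11.6 and 12.8 CPM of controls. Its log2 fold change was 0.998 ± 0.19 (edgeR adjusted p = 0.0240), and the call was lost without GK 8 (0.0513), GK 10 (0.0572), control 8 (0.0533), control 9 (0.0572) or control 10 (0.0835).

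Tap2, a subunit of the peptide transporter, is listed under a pair of gene identifiers on chromosome 20, so its reads may be shared. The copy at 5198258 to 5212624 had 12.7, 15.3, 10.97 and 14.2 CPM in GK aortas and 7.41, 5.36, 7.31 and 8.73 CPM in controls, a rise of 0.88 ± 0.19 (edgeR adjusted p = 0.0339, but 0.0121 without GK 9 and 0.0543 to 0.116 without each of the other 7 libraries). The copy at 3995544 to 4009587 stood at 0.042 ± 0.15 (edgeR adjusted p = 0.879). B2m had 720, 538, 629 and 1122 CPM in GK aortas and 717, 727, 968 and 571 CPM in controls, with the groups overlapping (0.012 ± 0.28, edgeR adjusted p = 0.982). Of the 36 genes described here for antigen processing and presentation, 35 were found, under 36 identifiers that were all tested. Of these 2 were called higher and 1 lower, a share near the 7.28% of all genes tested that were called (3.96% higher, 3.31% lower), and the median log2 fold change was -0.028, against 0.00081 over all genes.

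**Figure D5:**
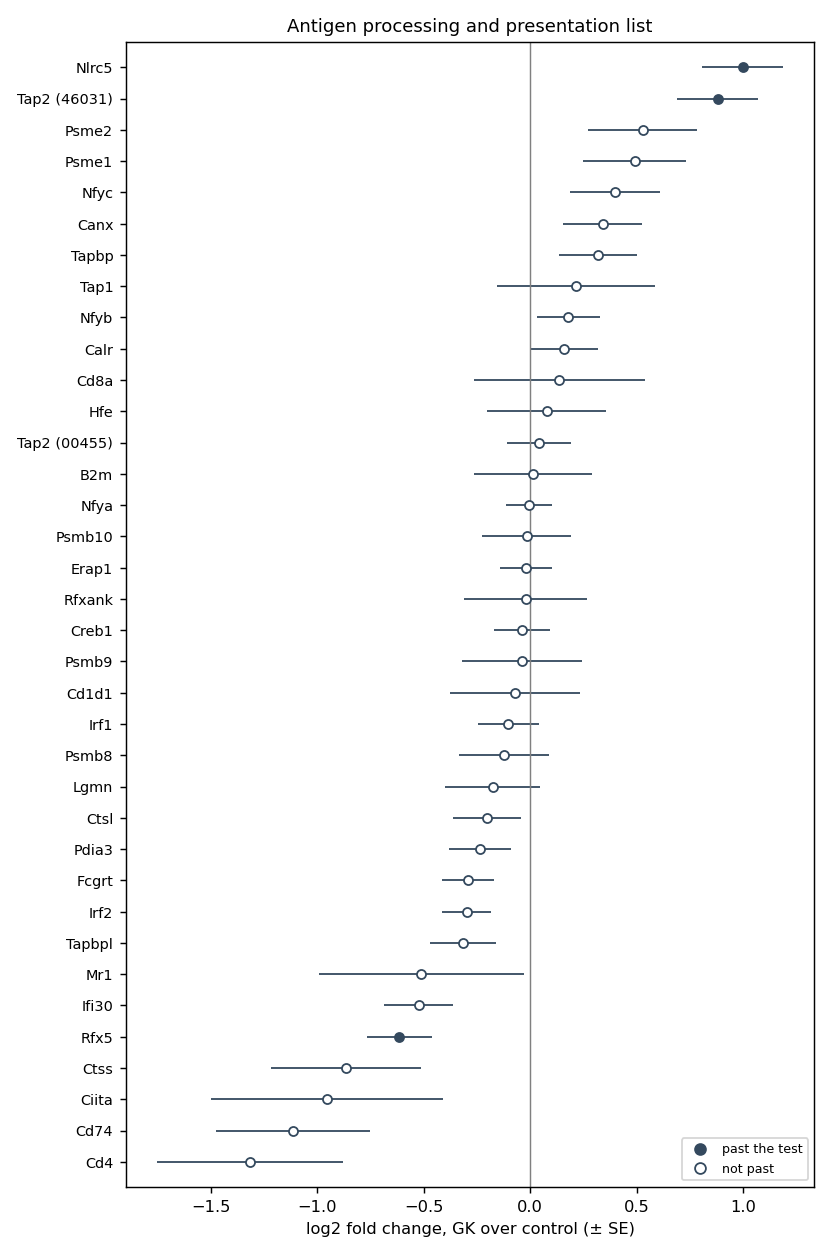
Log2 fold change, GK over control, with its standard error for the 36 identifiers of the antigen processing and presentation list, sorted by value. Filled points passed the test (Nlrc5 and the first Tap2 copy above 0, Rfx5 below), and the remaining 33 did not.

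Since class II genes are carried by certain immune cells, markers of those cells were set beside them. The 9 macrophage markers summed to 339, 472, 462 and 297 CPM in GK aortas 7 to 10, against 832, 438, 1084 and 748 CPM in controls 7 to 10. The ranges overlapped, with control 8 below GK 8 and GK 9. Of the 9 markers 8 were below 0 on the log2 scale and 1 above, and 1, Lyz2, was called lower (-1.45 ± 0.25, edgeR adjusted p = 0.0170), against 3.31% of all genes. Lyz2 had 123, 107, 159 and 123 CPM in GK aortas 7 to 10 and 290.02, 276, 525 and 304 CPM in controls 7 to 10, and was the highest marker of the list in all 8 libraries. Without it the sum was 216, 365, 303 and 174 CPM in GK aortas and 542, 162, 559 and 444 CPM in controls, and control 8 was the lowest of all. Cd68 stood at 0.77 ± 0.32 (edgeR adjusted p = 0.164) and Mertk at -0.022 ± 0.30 (0.970). Dendritic cell markers (7, of which 3 were tested) summed to 21.9 to 28.5 CPM in GK aortas and 17.3 to 31.0 CPM in controls. B cell markers summed to 2.95 to 11.5 CPM in GK aortas and 4.23 to 14.0 CPM in controls, and T cell markers to 17.2 to 60.2 CPM in GK aortas and 33.6 to 73.8 CPM in controls. Cd4 was the highest gene of the T cell list in all 8 libraries and the largest part of that sum, at 7.78 to 24.4 CPM in GK aortas. In controls 7 to 10 Cd4 had 51.2, 15.1, 50.4 and 42.4 CPM, lowest in control 8 as was the macrophage sum. Cd3e had 2.94, 3.42, 4.56 and 1.57 CPM in the same controls. Whether T cells or macrophages carried the Cd4 counts was not tested. Cd4 stood at -1.31 ± 0.44 (edgeR adjusted p = 0.0997), while the median log2 fold change of the 6 tested genes of the T cell list was 0.017. No marker of the last 3 lists was called, and no marker of these 4 lists was at 0 in all libraries. Endothelial cells, which also carry class I, had summed markers of 877 to 1104 CPM in GK aortas and 532 to 847 CPM in controls, with 2 of 5 called higher (3.96% of all genes). The called markers were Kdr and Egfl7, while Cdh5 and Tek were above 0 without a call. Vwf stood at -0.51 ± 0.48 (edgeR adjusted p = 0.519), and Pecam1, also listed, was not found. Fibroblast markers summed to 801 to 3101 CPM in GK aortas and 3019 to 6328 CPM in controls, with 2 of 6 called lower (3.31% of all genes). Of the smooth muscle markers 1 of 6 was called lower, and of the adipocyte markers 1 of 7 was called higher. The part of cell makeup in the RT1 values was not tested beyond these levels.

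Of the long non-coding RNA (lncRNA) transcripts in their own table, 43 overlap an RT1 gene in the annotation, and 12 of these were tested. NONRATT017002.2, which overlaps RT1-CE10, had 2.42, 1.18, 2.59 and 3.32 CPM in GK aortas and 8.02, 10.8, 7.55 and 7.73 CPM in controls (on lncRNA totals). It was lower in every GK library (log2 fold change -1.80 ± 0.34, edgeR adjusted p = 0.0294), the only call among the 12, where 2.74% of all 11683 lncRNA transcripts tested were called (1.63% higher, 1.11% lower). The call was kept without GK 9 (0.0464), and lost without any of the other 7 libraries (0.0617 to 0.110), without both libraries numbered 9 (0.0611) and with no filter on low counts (0.0760). NONRATT017565.2 stood at 1.59 ± 0.44 (edgeR adjusted p = 0.0984), ENSRNOT00000087471 at -1.42 ± 0.50 (0.181), NONRATT017566.2 at -0.95 ± 0.34 (0.196) and ENSRNOT00000087909 at 0.54 ± 0.36 (0.479). The first 3 of these overlap RT1-CE2 and RT1-CE4. The strand setting was not given in the sources used here. Reads of a transcript and of the gene it overlaps cannot be told apart.

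Among untested transcripts, NONRATT017480.2 over RT1-CE10 had 0 counts in GK aortas and 22 in controls, at least 7.10-fold lower (floor of 3 counts over the group). NONRATT017073.2 over RT1-Db1 had 0 counts in GK aortas and 20 in controls, at least 6.46-fold lower. NONRATT017137.2 over RT1-A1 and RT1-A2 had 0 in GK aortas and 134 in controls, all of them in control 9. The authors' deposited table of predicted pairs joins 65 lncRNA transcripts to 5 RT1 genes in 78 pairs, with 1 pair in cis each for RT1-A1, RT1-CE10 and RT1-Db1, and pairs in trans for RT1-DOa (59) and RT1-S3 (16).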

How the data were processed

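Total RNA of 8 thoracic aortas, 4 of GK and 4 of control Wistar rats, was sequenced. Samples were grouped by titles, strain and group in the labels. All source names give GK even for controls, and were set aside. The authors deposited whole-number counts per gene and per lncRNA transcript and FPKM values in the same tables, per the file headers, with their own log2 fold changes, p-values and q-values, which are printed only where named as theirs. The submitters' processing notes list Bowtie 0.12.2 and the mouse builds mm8 and mm9 with no role. The rat build, the counting rule and the strand setting were not given in the sources used here.

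From the counts, genes were tested in R 4.3.3 with edgeR 4.0.16 (filterByExpr with its minimum count of 10, TMM factors, glmQLFit, glmQLFTest, no term but group, two-sided), with Benjamini-Hochberg adjustment over all genes tested, a threshold of 0.05 and no fold minimum. The lncRNA table, with totals of 1185872 to 2031376 per library, was fitted separately. CPM are counts over the library total times its TMM factor, the SE was taken as the log2 fold change divided by the square root of F, and sums and shares carry no test. FPKM were used only to compare levels between genes and as an alternative scale. Scripts were tested on simulated data. DESeq2 1.42.0, RLE normalization, no filter, a replicate block and libraries left out were tried as alternatives. Every RT1 gene is accounted for, and those past the test or with a mean of at least 10 CPM in either group are given in full. Of the antigen processing list the genes past the test are named, with B2m, Cd74, Ciita and Nlrc5 (1 gene of the list is not reported here and enters none of its counts), and of the lncRNA the 5 with the lowest adjusted p. LOC genes and untested transcripts were named after their values were seen. The members, lists and tests were chosen with earlier results of these data known. All 34 symbols were found in the RefSeq gene table of GRCr8, from which no coordinates of genes were taken, and promoter positions were not compared with the positions in the files.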

Additional observations from a re-analysis of the deposited data

Results flagged for a closer look

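In each group of 4 libraries, the highest or the lowest value was set against the rest by Dixon's ratio. Of 74 groups checked, 9 held a library that stands apart. Chance gives about 1 in 20 for independent, normally distributed values. These CPM come from genes that share libraries and may share reads, so the 9 cannot be set against that rate. Of these 9, 4 were in GK 10 and 3 in GK 9. In GK 10, RT1-T24-4 stood at 91.7 CPM (other GK libraries 23.7 to 30.4), RT1-T24-3 at 60.9 CPM (9.68 to 14.0), RT1-T24-1 at 16.8 CPM (3.71 to 4.71) and RT1-T24-2 at 6.42 CPM (0.618 to 1.35). RT1-T24-1 and RT1-T24-2 overlap in the annotation. In GK 9, RT1-Ba stood at 7.03 CPM (1.30 to 2.04), RT1-DOb at 2.26 CPM (0.365 to 0.618) and RT1-A2 at 9.23 CPM (7.52 to 7.76). RT1-T24-4 also stood apart in control 7 at 54.2 CPM (other controls 26.3 to 30.4), and Ciita in control 9 at 13.9 CPM (6.07 to 7.34).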

How the results depend on the processing

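The same 7 RT1 genes passed with RLE normalization, with no filter on low counts, with DESeq2 and without both libraries numbered 9. Over all genes, calls numbered 995, against 654 with no filter, 2489 with DESeq2, 2534 without both libraries numbered 9 and 135 to 3046 with 1 library left out. RT1 calls with 1 library left out numbered 1 to 2 higher and 3 to 5 lower. Of the antigen processing list, 1 gene was called lower, but 0 with RLE or no filter, 4 with DESeq2 and 2 without both libraries numbered 9, and with 1 library left out 0 to 4 were higher and 0 to 4 lower. Of the overlapping lncRNA 1 was called, but 0 with no filter, 2 with DESeq2 and 0 to 2 with 1 library left out. The replicate block (numbers 7 to 10 as a term) gave 2372 calls, added RT1-Da (-0.85, edgeR adjusted p = 0.0341) and Cd74 (0.0155) and gave 2 lower calls of the list, 0 lncRNA calls (NONRATT017002.2 at 0.0895) and a B2m value of -0.026. Same-numbered libraries deviated together with correlations of 0.42, 0.068, 0.55 and 0.025 for 7 to 10, and only those numbered 7 and 9 matched best, so the numbers were not taken to pair the samples. Near 0, RT1-DOa turned to 0.0051 (RLE) and 0.0032 (DESeq2) and RT1-S3 to 0.23 (without both libraries numbered 9). With 1 library left out, log2 fold changes crossed 0 for RT1-S3 (-0.88 to 0.25), RT1-DOa (-0.94 to 0.29), RT1-DMb (-0.42 to 0.10), RT1-CE6 (-0.10 to 0.59), RT1-T24-1 (-0.28 to 0.78), RT1-T24-2 (-0.37 to 1.09), RT1-T24-4 (-0.38 to 0.62), B2m (-0.25 to 0.17) and the second Tap2 copy (-0.058 to 0.097). The log2 ratio of the class I sum was 0.046 on FPKM and 0.41 to 0.78 with 1 library left out, that of class II -1.75 to -1.22, and the RT1-A1 share differed by 68.1 points on counts, 77.9 on FPKM and 64.4 to 73.7 with 1 library left out. The cause of these changes was not tested. RT1-CE10 in GK aortas rests on 6 to 16 counts per library, and untested members on 25 or fewer per group.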
